A study of Arabidopsis thaliana with 17 samples.

Results

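The transcripts of PR1, PR2 and PR5, the classical pathogenesis-related marker genes of salicylic acid (SA) signalling in Arabidopsis thaliana, were followed on 17 ATH1 arrays. They were chosen by name, through the probe set assigned to each locus: 266385_at for PR1 (AT2G14610, chromosome 2), 251625_at for PR2 (AT3G57260, chromosome 3, BGL2 in the RefSeq annotation) and 259925_at for PR5 (AT1G75040, chromosome 1). These are 3 of 22746 probe sets measured after control probe sets were left out, and all 3 are protein-coding genes that enter every fit without a filter on dim signals. The platform annotation used here lists none of the 3, so their names rest on that assignment.

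PR proteins accumulate in leaves that have met a pathogen or SA, and many are secreted. PR1 encodes a small secreted protein of the CAP family with antimicrobial activity, PR2 a glucanase that cuts beta-glucans of the fungal wall, and PR5 a thaumatin-like protein. In wild-type plants SA switches these genes on through NPR1, a co-activator that acts with TGA transcription factors, while SNI1 holds them down, so that losing SNI1 restores part of their response in plants without NPR1. BRCA2A takes part in homologous recombination, and SSN2 was named as a suppressor of sni1.

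All plants carried the npr1 and sni1 mutations, and no group without them is used here. The 3 genotypes were npr1 sni1, npr1 sni1 brca2a and npr1 sni1 ssn2, whose alleles the labels do not name. Plants were 3 weeks old, grown in soil under a 16 hour day at 21 to 24 °C, and were given 0.5 mM SA or water and taken after 16 hours. Each group had 3 arrays except npr1 sni1 ssn2 after SA, with 2, and the series design describes the replicates as independent experiments. The labels call the tissue seedling and do not say which organs were taken, and for the ssn2 samples the titles and genotype entries were followed where the treatment text gives brca2a instead. In RNA from whole tissue, fewer cells that express a gene and less RNA per cell cannot be told apart.

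The 12 arrays of npr1 sni1 and npr1 sni1 brca2a stand in 1 deposited table and the 5 arrays of npr1 sni1 ssn2 in another, normalized apart, so every test was made within a table and no level is compared across them. Genotype and experiment cannot be told apart between the tables. Array medians lay between 57.2 and 61.9. The best correlation of an array with a replicate of its group was at least 0.994 except for npr1 sni1, water replicate 2, where it was 0.981. The log2 ratio of the GAPDH control probe sets at the 3-prime and 5-prime ends lay between 0.58 and 1.16 in the 12 arrays and between 0.21 and 0.41 in the 5. Of the 24 tissue markers, 2 could be identified: RCA, the leaf gene of Rubisco activase, had 10008 to 14773 intensity units on the 17 arrays, and PYK10, a glucosidase gene of roots and hypocotyls, had 457 to 961. PYK10 fell after SA in npr1 sni1 ssn2 by 0.47 ± 0.05 (log2, standard error, 3 arrays against 2, adjusted p = 0.00085), and its part in the ssn2 results was not tested. The platform annotation used here covers 14016 probe sets of the array and pairs none of them with NPR1, SNI1, BRCA2A or SSN2 alone, so the transcripts of these 4 mutated genes were not analysed here.

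SA raised all 3 genes in npr1 sni1. PR1 had intensities of 41.5, 43.1 and 36.6 in water and of 427, 511 and 462 after SA (replicates 1, 2 and 3), an 11.6-fold ratio of the means. Each of the 3 SA arrays lay above each water array by a wide margin. On the log2(intensity + 16) scale used for all tests, which understates changes of dim probe sets, PR1 rose by 3.10 ± 0.10 (standard error of the fit, 3 arrays against 3, adjusted p = 1.2e-07). It had the smallest p-value of all 22746 probe sets in this comparison and the 6th largest rise.

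PR5, the thaumatin-like gene, had 135, 118 and 127 in water and 331, 365 and 396 after SA in npr1 sni1, again without overlap. It rose by 1.41 ± 0.09 (log2, adjusted p = 6.3e-06), or 2.87-fold as a ratio of mean intensities. PR2, the glucanase gene, had 40.6, 131 and 56.0 in water and 309, 292 and 271 after SA. Its water arrays were spread widely, with replicate 2 far above replicates 1 and 3, while its SA arrays lay close together and above all of them. PR2 rose by 1.86 ± 0.28 (log2, adjusted p = 0.0021). Without npr1 sni1, water replicate 2, the array that stands apart from its group, the rise of PR2 was 2.26 ± 0.14 (adjusted p = 1.6e-06). Over all probe sets 7.47% were called in this comparison, 4.94% as higher and 2.54% as lower, and all arrays of the SA group lay above all water arrays for 10.4%, against 3 of 3 members in both counts.

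**Figure D1:**
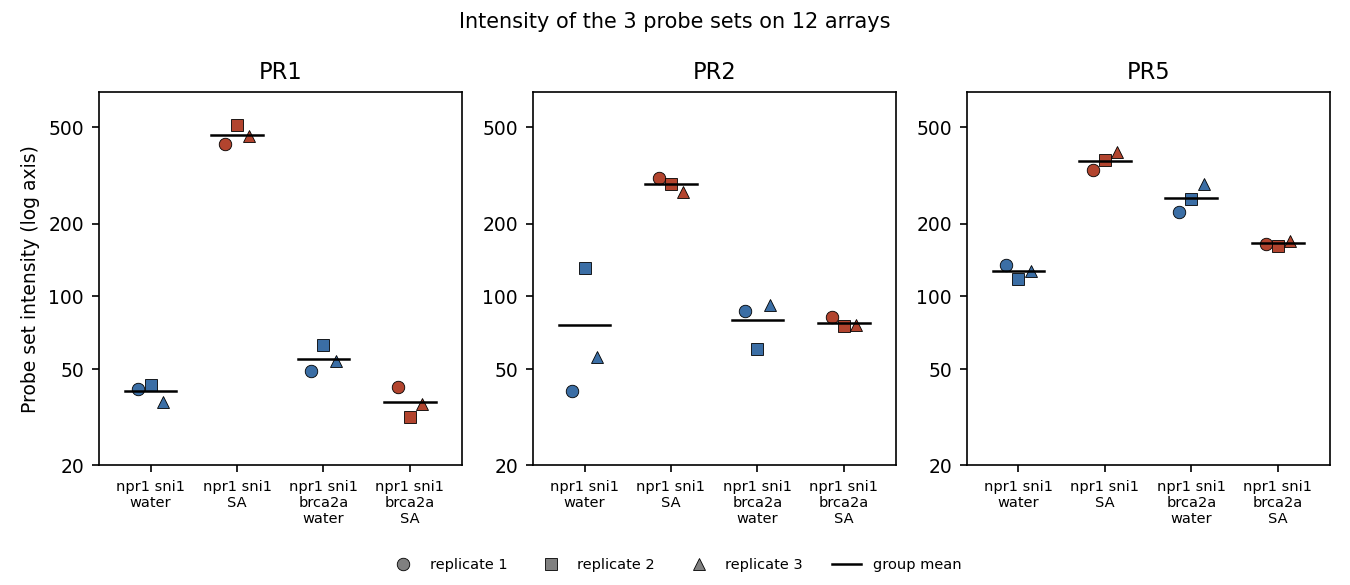
Probe set intensity (vertical log axis, arbitrary units) of PR1, PR2 and PR5 on each of the 12 arrays of npr1 sni1 and npr1 sni1 brca2a after water (blue) or SA (red); marker shapes give the replicate number and bars the group mean. Only the npr1 sni1 SA arrays are high in PR1 (427 to 511) and PR2 (271 to 309), whereas PR5 in npr1 sni1 brca2a is higher in water (223 to 293) than after SA (162 to 170).

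In npr1 sni1 brca2a none of the 3 genes rose with SA, and 2 fell. PR5 had 223, 251 and 293 in water and 165, 162 and 170 after SA. Every SA array lay below every water array, the reverse of the order in npr1 sni1. PR5 fell by 0.57 ± 0.09 (log2, 3 arrays against 3, adjusted p = 0.0097), and all 12 fits that left out 1 array kept this call, with adjusted p between 0.0016 and 0.036.

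PR1 in npr1 sni1 brca2a had 49.0, 62.9 and 54.0 in water and 42.1, 31.8 and 35.9 after SA, so its groups did not overlap either. It fell by 0.44 ± 0.10 (log2, adjusted p = 0.03). The call of PR1 is near the threshold: it ended without npr1 sni1 brca2a, water replicates 2 or 3 (adjusted p = 0.084 and 0.079), SA replicates 2 or 3 (0.11 and 0.092) or npr1 sni1, SA replicate 3 (0.051), and with a pseudocount of 64 (0.07). PR2 had 86.9, 60.6 and 91.9 in water and 82.0, 75.1 and 76.4 after SA. The SA arrays lay inside the range of the water arrays. Its log2 change was -0.01 ± 0.28 (adjusted p = 0.98), with a 95% interval from -0.63 to 0.61, or from 0.644-fold to 1.52-fold. With only these 6 arrays in the fit, PR2 had the same change with a standard error of 0.13. Over all probe sets 4.65% were called in this comparison, 2.61% as higher and 2.04% as lower, and 16.9% had all SA arrays below all water arrays, against 0 members higher and 2 of 3 lower and without overlap.

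**Figure D2:**
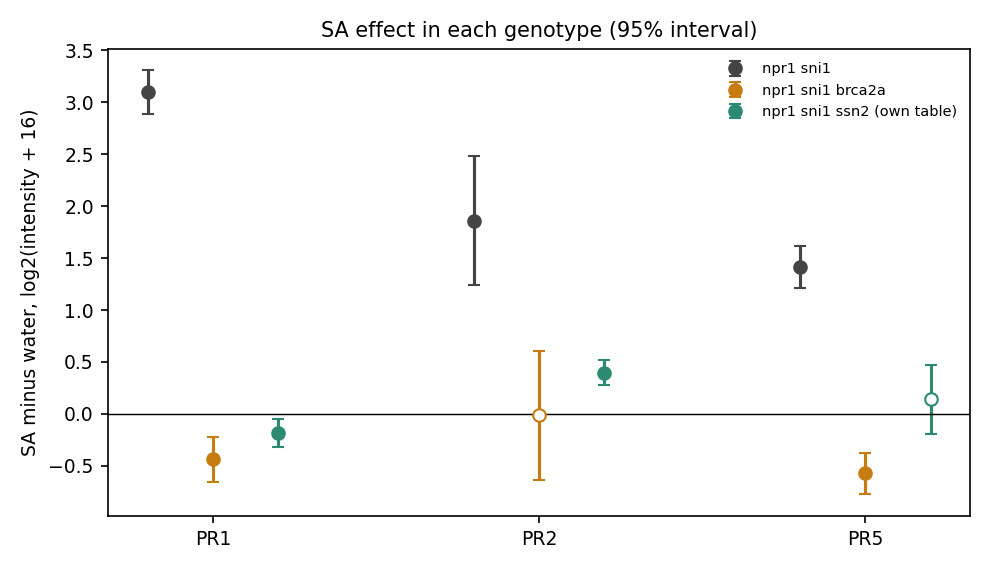
SA minus water on the log2(intensity + 16) scale (vertical axis) for PR1, PR2 and PR5 in the 3 genotypes, with 95% intervals of the limma fits; filled points passed an adjusted p of 0.05. The npr1 sni1 effects lie at 1.41 to 3.10, those of npr1 sni1 brca2a at -0.57 to -0.01 and those of npr1 sni1 ssn2, from its own table, at -0.19 to 0.40.

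The difference between the SA effects of npr1 sni1 brca2a and npr1 sni1 was tested as an interaction over the 12 arrays. It was negative for all 3 genes. For PR1 it was -3.53 ± 0.14 (log2, adjusted p = 2e-06), the smallest p-value of all probe sets and the 4th lowest difference. For PR5 it was -1.99 ± 0.13 (adjusted p = 3.1e-05). For PR2 it was -1.87 ± 0.40 (adjusted p = 0.04), a call that ended with any 1 of 10 arrays left out (adjusted p up to 0.11): every array other than npr1 sni1, water replicate 2 and npr1 sni1 brca2a, water replicate 2. Without npr1 sni1, water replicate 2, the PR2 difference was -2.28 ± 0.19 (adjusted p = 7.5e-05). PR2 also missed the threshold with a trended, robust estimate of the spread (adjusted p = 0.056). Over all probe sets 1.94% were called in this comparison, 1.54% as lower, against 3 of 3 members.

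Without SA, PR5 alone of the 3 genes passed the test between these genotypes, and whether the genes differ from each other was not tested. PR5 was higher in npr1 sni1 brca2a in water, at 223 to 293, than in npr1 sni1 in water, at 118 to 135, with no overlap. The difference was 0.92 ± 0.09 (log2, 3 arrays against 3, adjusted p = 0.0082), the 3rd smallest p-value of the comparison. This call ended without npr1 sni1, water replicate 3 (adjusted p = 0.052, difference 0.92) and with only the 6 water arrays in the fit (0.27). PR1 had 49.0 to 62.9 against 36.6 to 43.1, also without overlap, and its difference of 0.33 ± 0.10 did not pass (adjusted p = 0.27). PR2 had 60.6 to 91.9 against 40.6 to 131, and a difference of 0.17 ± 0.28 (adjusted p = 0.85, 95% interval -0.45 to 0.79). Without npr1 sni1, water replicate 2, the PR2 difference was 0.57, also without a call. Over all probe sets only 0.0747% were called in this comparison, 0.044% as higher, and 9.3% had all brca2a arrays above all npr1 sni1 arrays, against 1 and 2 of 3 members.

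After SA all 3 genes were lower in npr1 sni1 brca2a than in npr1 sni1. PR1 was 12.8-fold lower as a ratio of mean intensities, with a log2 difference of -3.20 ± 0.10 (3 arrays against 3, adjusted p = 1.6e-07) and the smallest p-value of all probe sets. PR2 differed by -1.71 ± 0.28 (adjusted p = 0.0051) and PR5 by -1.06 ± 0.09 (adjusted p = 5.5e-05). No array of one group reached into the other for any of the 3, where 10.8% of all probe sets had all brca2a arrays below, 4.26% were called and 2.87% were called lower. These comparisons share their SA and water arrays with the effects above and are not independent of them.

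The order of the group means in this table therefore differed from gene to gene. PR1 ran from npr1 sni1 after SA (467 ± 42.3, mean and SD, n = 3) to npr1 sni1 brca2a in water (55.3 ± 7.02), npr1 sni1 in water (40.4 ± 3.41) and npr1 sni1 brca2a after SA (36.6 ± 5.22), with the arrays of the last pair overlapping. For PR2, npr1 sni1 after SA (291 ± 19.3) stood above 3 groups whose arrays overlapped: npr1 sni1 brca2a in water (79.8 ± 16.8), npr1 sni1 brca2a after SA (77.8 ± 3.67) and npr1 sni1 in water (76.0 ± 48.6). For PR5 no neighbouring groups overlapped, from npr1 sni1 after SA (364 ± 32.3) through npr1 sni1 brca2a in water (256 ± 34.9) and after SA (166 ± 3.98) to npr1 sni1 in water (127 ± 8.40). PR5 is thus the one of the 3 with both brca2a groups above untreated npr1 sni1 on every array.

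In npr1 sni1 ssn2 PR2 rose with SA, PR1 fell and PR5 did not pass the test. PR2 had 24.8, 24.3 and 24.6 in water and 36.0 and 38.8 after SA. The water arrays were nearly equal and both SA arrays lay above them. PR2 rose by 0.40 ± 0.05 (log2, 3 arrays against 2, adjusted p = 0.0017), or 1.52-fold as a ratio of mean intensities, and kept the call in all 5 fits without 1 array (adjusted p between 0.0064 and 0.011). The size of this low-intensity change depends on the scale, from 0.19 with a pseudocount of 64 to 0.60 on the series value table, where it was called too.

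PR1 had 25.8, 28.7 and 27.8 in water and 21.6 and 22.8 after SA in npr1 sni1 ssn2, with both SA arrays below. It fell by 0.19 ± 0.05 (log2, adjusted p = 0.043), a call that ended when any 1 of the 5 arrays was left out (adjusted p from 0.063 to 0.15), with a pseudocount of 64 (0.056) and with a trended, robust spread (0.076). PR5 had 38.7, 57.3 and 54.0 in water and 60.9 and 51.9 after SA. Its groups overlapped, and the change was 0.14 ± 0.14 (adjusted p = 0.52, 95% interval -0.19 to 0.47). Averaged over the 5 arrays, the log2 level of each of the 3 genes lay below the median of the probe sets of this table. The PR1 means were 27.4 ± 1.52 (SD, n = 3) and 22.2 ± 0.868 (n = 2). In this comparison 33.2% of all probe sets were called, 18.8% higher and 14.5% lower, against 1 higher and 1 lower of 3 members, and groups did not overlap for 53.1% of all probe sets, against 2 of 3 members. Whether the SA effects of npr1 sni1 ssn2 differ from those of npr1 sni1 was not tested, since the tables were normalized apart.

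**Figure D3:**
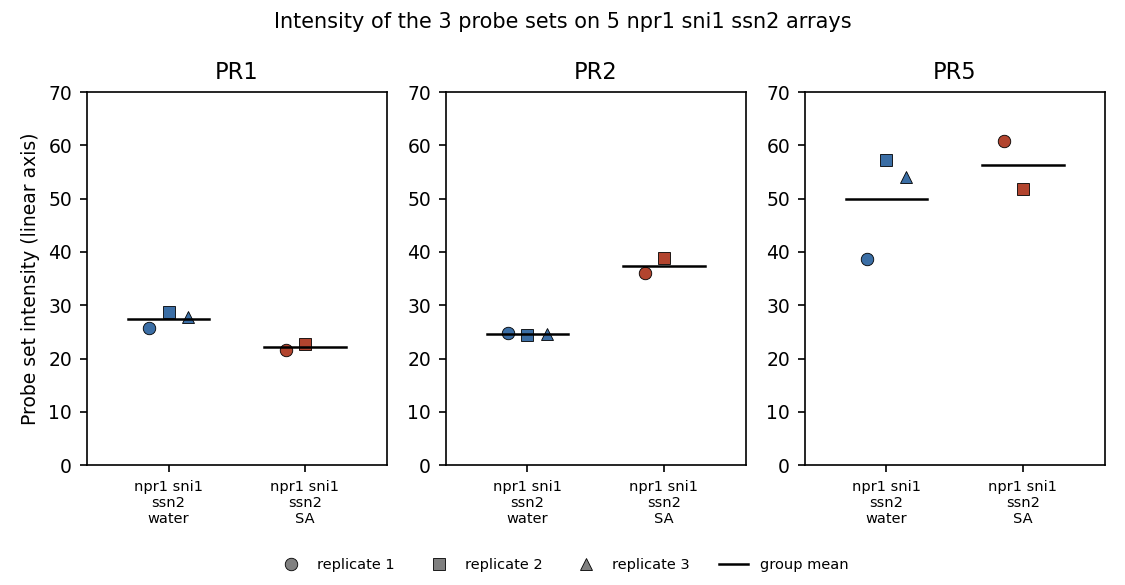
Probe set intensity (vertical linear axis, arbitrary units) of PR1, PR2 and PR5 on the 5 npr1 sni1 ssn2 arrays after water (blue) or SA (red); marker shapes give the replicate number and bars the group mean. PR2 is higher on both SA arrays (36.0 and 38.8) than on the water arrays (24.3 to 24.8), PR1 is lower (21.6 and 22.8 against 25.8 to 28.7), and PR5 overlaps.

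Within groups the 3 genes deviated from their means by different amounts on the array that stands apart. On npr1 sni1, water replicate 2, PR2 lay 1.21 (log2) above the mean of the other water arrays of the group, while PR1 lay 0.10 above it and PR5 differed by -0.13. Over the 12 arrays the deviations from the group means correlated at r = 0.01 between PR1 and PR2, 0.24 between PR1 and PR5 and -0.33 between PR2 and PR5, as a description over arrays that share group means.

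The other genes of the SA pathway were taken from lists of 48 genes, of which 6 had a probe set with 1 annotated gene. In npr1 sni1, 5 of the 6 rose after SA and none fell, with a median log2 change of 1.50 beside -0.01 for all probe sets. Over all probe sets 4.94% were called higher and 2.54% lower. AT5G03350, a lectin-like gene known as LLP1, rose by 2.83 ± 0.09 (adjusted p = 1.2e-07), and GRX480, a glutaredoxin gene whose product binds TGA factors, by 2.46 ± 0.17 (9.7e-06). WRKY53, a transcription factor gene, rose by 1.93 ± 0.09 (6.2e-07), SARD4 (AT5G52810), a reductase gene of pipecolic acid synthesis, by 1.07 ± 0.09 (4.3e-05), and SAG101, a partner of EDS1, by 0.50 ± 0.06 (0.0007). BSMT1, which encodes an SA methyltransferase, had 0.07 ± 0.52 (0.97). Its means were very low in npr1 sni1, at 7.24 in water and 8.40 after SA. PR1 thus had a larger change than each of these 6, and PR5 a smaller one than 3 of them.

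In npr1 sni1 brca2a, where 2.61% of all probe sets were called higher and 2.04% lower, 1 of the 6 rose and none fell. The median of the 6 was 0.26 beside -0.02 for all probe sets. The gene that rose was AT5G03350, with 1.07 ± 0.09 (log2, adjusted p = 0.0013). GRX480 and WRKY53 had 0.11 ± 0.17 (0.76) and 0.01 ± 0.09 (0.97), SARD4 0.37 ± 0.09 (0.051), SAG101 0.15 ± 0.06 (0.2) and BSMT1 1.33 ± 0.52 (0.18). The SA arrays of BSMT1 ran from 28.9 to 233 with a median of 30.8, so 1 array stood far above the others. With 1 array left out, its change lay between 0.52 and 1.75. The SA effect was lower than in npr1 sni1 for 4 of the 6 by the interaction test: GRX480 (-2.35 ± 0.24), WRKY53 (-1.92 ± 0.12), AT5G03350 (-1.76 ± 0.12) and SARD4 (-0.71 ± 0.13, adjusted p = 0.019). Over all probe sets 1.54% were called lower by this test. The SARD4 call ended without npr1 sni1, SA replicate 2, or npr1 sni1 brca2a, water replicates 1 or 3 or SA replicates 1 or 3 (adjusted p up to 0.059). SAG101 had -0.35 ± 0.09 (0.095) and BSMT1 1.26 ± 0.74 (0.55). Without npr1 sni1, water replicate 2, the rise of SARD4 in brca2a (0.37, adjusted p = 0.023) and the SAG101 interaction (-0.41, 0.012) passed. In water 1 of the 6 was higher in npr1 sni1 brca2a than in npr1 sni1, AT5G03350 by 0.64 (adjusted p = 0.037), beside 0.044% of all probe sets. After SA 5 of the 6 were lower, with a median difference of -0.81, beside 2.87% of all probe sets called lower.

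In npr1 sni1 ssn2 2 of the 6 rose, AT5G03350 by 1.39 ± 0.06 (log2, 3 arrays against 2, adjusted p = 2.8e-05) and SARD4 by 0.50 ± 0.07 (0.0026), where 18.8% of all probe sets were called higher. The median over the 6 was 0.20 beside 0.00 for all probe sets. WRKY53, GRX480, SAG101 and BSMT1 had 0.17, 0.11, 0.24 and 0.00 (adjusted p from 0.15 to 0.96). BSMT1 was very low there, with means of 5.66 in water and 5.73 after SA. SAG101 passed without water replicate 3 (0.34, adjusted p = 0.009) and WRKY53 without SA replicate 1 (0.28, 0.043).

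Of 14 genes of other PR protein types or close relatives of the 3, 6 were measured, and none rose with SA in npr1 sni1 or npr1 sni1 brca2a. Over all probe sets 4.94% and 2.61% were called higher in these comparisons. PDF1.1, PDF1.2a, OSM34 and AT1G75050 were dim, with means of 8.64, 12.3, 15.4 and 17.7 in npr1 sni1 in water. The medians of the 12 arrays were 58.2 to 61.9, so the lack of a call says little about these 4. PDF1.2b, a defensin gene of the jasmonate response, fell by 0.42 ± 0.07 in npr1 sni1 (log2, adjusted p = 0.0054), measured by a probe set of the kind that can bind related transcripts. The other 5 had -0.05 (AT1G75050, a thaumatin-like gene next to PR5), -0.21 (OSM34, osmotin-like), -0.15 (PDF1.2a, defensin), 0.00 (PDF1.1, defensin) and -0.10 (THI2.1, thionin), with adjusted p from 0.099 to 1. The THI2.1 change had a standard error of 0.21, with npr1 sni1 water arrays from 33.7 to 66.3, so its lack of a call says little too. In npr1 sni1 brca2a the 6 had changes of -0.21 to 0.10 (adjusted p from 0.14 to 1), and none of the 6 passed the interaction test. Without npr1 sni1, water replicate 2, OSM34 in npr1 sni1 (-0.27, adjusted p = 0.0086) and PDF1.2b in npr1 sni1 brca2a (-0.21, 0.047) passed as lower. In npr1 sni1 ssn2 THI2.1 rose by 0.32 ± 0.06 (adjusted p = 0.0056), and the other 5 had -0.16 to 0.05 (adjusted p from 0.23 to 1). The THI2.1 means there were low, at 13.9 in water and 21.5 after SA, and 18.8% of all probe sets were called higher.

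**Figure D4:**
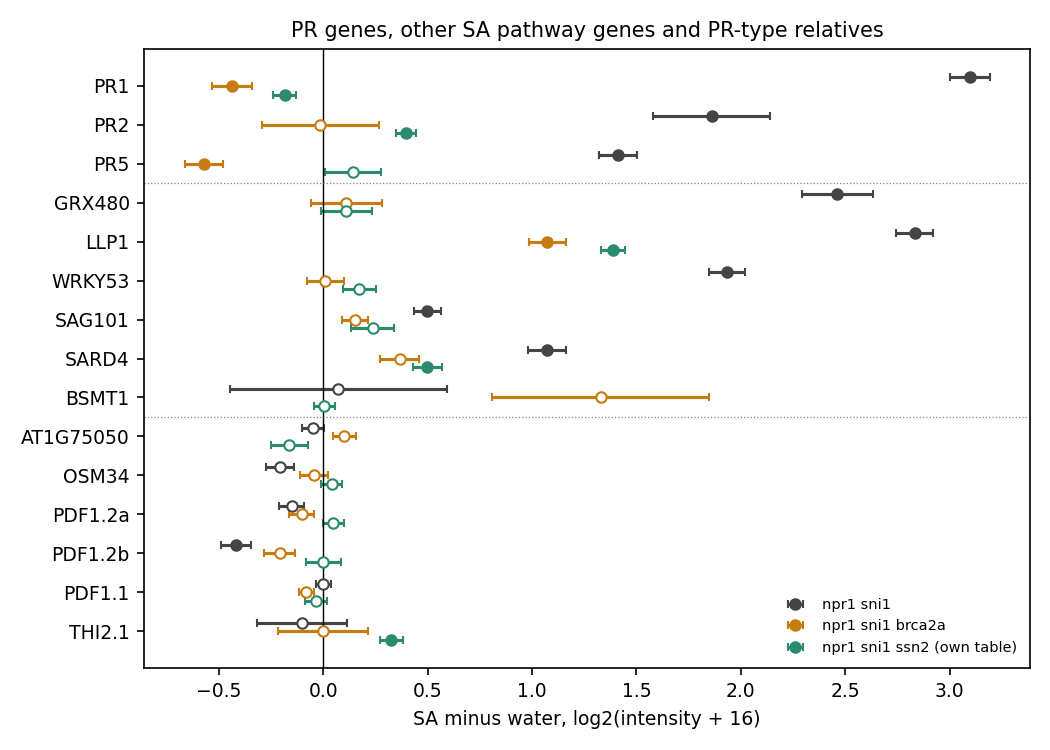
SA minus water on the log2(intensity + 16) scale (horizontal axis) for PR1, PR2 and PR5 (top block), 6 other SA pathway genes (middle) and 6 genes of other PR types or relatives (bottom) in the 3 genotypes; bars are standard errors and filled points passed an adjusted p of 0.05. In npr1 sni1 the filled points of the upper blocks lie at 0.50 to 3.10, and the bottom block lies between -0.42 and 0.00.

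Among the 5 annotated loci on each side, 4, 5 and 2 around PR1, PR2 and PR5 were measured. The 4 around PR1 are all annotated as pseudogenes, so no protein-coding neighbour of PR1 was measured. One of these 11, AT3G57280 near PR2, changed with SA in npr1 sni1, by 0.37 (log2, adjusted p = 0.0042), where 7.47% of all probe sets were called. None of the 11 passed the interaction test, where 1.94% of all were called. AT3G57280 lay just over the threshold there, with -0.39 (adjusted p = 0.054). In npr1 sni1 ssn2 1 of the 11 was called, AGL16 near PR2 with 0.23 (adjusted p = 0.035), beside 33.2% of all probe sets. BG1 and BG3, the glucanase genes beside PR2, PRB1 near PR1 and the thaumatin-like gene TLP-3 beside PR5 were not paired with a probe set of their own in the annotation used here.

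The probe sets whose levels over the 12 arrays most resembled each gene differed between the 3. For PR1 the 5 nearest had Pearson r of 0.986 to 0.989 and included AT3G01830 and AT4G27654, whose SA effects in npr1 sni1 were 2.70 and 2.29 (log2). For PR2 they had r of 0.967 to 0.989 and included AT2G25735, AT1G18210 and AT3G10300. All 5 were 0.50 to 1.18 (log2) above the other water arrays on npr1 sni1, water replicate 2. Because they were picked for their correlation with PR2 over arrays that include this one, where PR2 was high, this is not a separate result. For PR5 r was lower, at 0.888 to 0.921, with AT1G08050 and AT5G52050 among the 5. Over the 5 npr1 sni1 ssn2 arrays the same probe sets had r of -0.67 to 0.45 with PR1, 0.78 to 0.996 with PR2 and -0.27 to 0.45 with PR5. The SA and water arrays did not overlap there for PR2, nor for 53.1% of all probe sets. How many of all probe sets had as high an r with PR2 was not examined. These values are a description over arrays that share groups and treatments.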

How the data were processed

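The authors deposited linear probe set intensity values in 2 tables (12 and 5 arrays). The submitters' processing notes name PLIER without a version. Log2 values less a constant per probe set, deposited as the series value table, served as an alternative; the origin of that constant is unknown for the 5 ssn2 arrays. Of 22810 probe sets, 64 controls were left out. Group means of log2(intensity + 16) were fitted per table with limma 3.58.1 (lmFit, eBayes) in R 4.3.3; contrasts were two-sided, with Benjamini-Hochberg adjustment over 22746 probe sets and a threshold of 0.05. The scripts were tested on simulated data. The number of arrays limits precision.

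Members and gene lists were chosen with earlier results of these data known. Named genes are the members, measured list genes and, per member, the 5 probe sets with the highest correlation over 12 arrays. Of 14016 probe sets in the platform table, 13436 gave 1 locus of RefSeq (TAIR10.1). No sequences are shown, since none were used here. Alternatives were other pseudocounts, scalings, filters, spreads and sources, a replicate block, and each array left out.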

Additional observations from a re-analysis of the deposited data

Results flagged for a closer look

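The SA effect differed between npr1 sni1 brca2a and npr1 sni1 by the interaction test for PR1 (-3.53, log2), PR5 (-1.99) and PR2 (-1.87), and among the measured SA pathway genes for GRX480 (-2.35), WRKY53 (-1.92), AT5G03350 (LLP1, -1.76) and SARD4 (-0.71). The PR2 call (adjusted p = 0.04) ended in 10 of the 12 fits that left out a single array. The SARD4 call (0.019) also ended without some single arrays. PR1 lay higher on every SA array of npr1 sni1 than on every water array, as did 10.4% of all probe sets. In npr1 sni1 ssn2 it lay lower on both SA arrays than on the water arrays (-0.19). Groups did not overlap there for 53.1% of all probe sets, and the PR1 call ended whichever water array was left out. The difference between these genotypes was not tested.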

How the results depend on the processing

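For PR1, PR2 and PR5, 18 results were recomputed under 348 alternatives in all, of which 316 kept the direction and the side of the threshold, 28 lost the call and 4 changed sign. The SA effects in npr1 sni1, the differences after SA, the fall of PR5 in npr1 sni1 brca2a, the PR1 and PR5 interactions and the rise of PR2 in npr1 sni1 ssn2 kept both under every alternative run; the brighter-half filter held none of the 3 genes in the ssn2 table. With a pseudocount of 64 the PR1 changes were -0.25 (npr1 sni1 brca2a) and -0.085 (npr1 sni1 ssn2); with a trended, robust spread the PR2 interaction was -1.87 and the PR1 change in ssn2 -0.19; with only the groups compared the PR5 difference in water was 0.92, all without a call; the cause was not tested. Replicate numbers did not pair the samples (correlations of same-numbered deviations from -0.33 to 0.16 over 18 pairs of the 12 arrays, -0.10 and -0.01 in the 5). With the replicate block the PR2 interaction was -1.87 (adjusted p = 0.082) and the PR1 change in ssn2 -0.18 (0.12), and no other member's call changed. With 1 array left out the PR1 change lay between -0.51 and -0.36 (brca2a) and -0.21 and -0.16 (ssn2), the PR2 change in brca2a between -0.17 and 0.079, its interaction between -2.28 and -1.59, and the difference in water between -0.12 and 0.57 for PR2 and 0.83 and 1.01 for PR5; in ssn2 a lone SA array was assumed to vary like the others.

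Counts of called probe sets moved with the array left out: 1090 to 4464 (SA in npr1 sni1, 1700 with all arrays), 379 to 3495 (SA in brca2a, 1057), 329 to 1065 (interaction, 442), 1 to 107 (water, 17) and 662 to 2028 (after SA, 970), the highest each time without npr1 sni1, water replicate 2. With only the groups compared they were 939, 2599, 2 (water) and 2040 (after SA); in water 3 were called with the block and 11 on the series value table. Centring each array on its median changed the calls higher and lower with SA from 1123 and 577 to 1027 and 1016 in npr1 sni1, and from 593 and 464 to 542 and 649 in brca2a.

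For genes of the lists the alternatives were added after seeing the data. Calls were gained without npr1 sni1, water replicate 2, by OSM34 in npr1 sni1 (-0.27, adjusted p = 0.0086), SARD4 (0.37, 0.023) and PDF1.2b (-0.21, 0.047) in brca2a and the SAG101 interaction (-0.41, 0.012). Calls were also gained by OSM34 in npr1 sni1 with a trended, robust spread (0.043), SARD4 in brca2a with the brighter probe sets only (0.038), SAG101 in ssn2 with the replicate block (0.34, 0.018) or without water replicate 3 (0.34, 0.009), and WRKY53 in ssn2 without SA replicate 1 (0.28, 0.043). Changes near 0 turned sign in genes without a call. THI2.1 in brca2a was 0.0045 with a pseudocount of 64 and 0.022 after quantile normalization, and with 1 array left out lay between -0.22 and 0.15 (-0.24 and 0.13 in npr1 sni1, -0.13 and 0.25 for the interaction). WRKY53 in brca2a was -0.0086 after centring and between -0.083 and 0.076 with 1 array left out, and GRX480 there between -0.10 and 0.24. BSMT1 in ssn2 was -0.033 after centring and -0.00197 with the block, and between -0.010 and 0.027 with 1 array left out. PDF1.1 in npr1 sni1 was 0.0014 after quantile normalization and between -0.00579 and 0.0044 with 1 array left out, PDF1.2a between -0.010 and 0.089 (interaction) and PDF1.2b between -0.085 and 0.083 (ssn2).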
